A study of Mus musculus with 12 samples.

Results

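Genes of mitochondrial and peroxisomal fatty acid oxidation were followed in 3T3-L1 adipocytes treated with berberine, a plant alkaloid. The set held 36 genes, namely the carnitine shuttle, the enzymes of both oxidation spirals, the electron transfer flavoproteins, acyl-CoA thioesterases, peroxisomal transporters, alpha-oxidation enzymes and the receptors PPARalpha and PPARdelta. A gene was measured where a probe set on the array carried its symbol and no other. That held for 35 of the 36 genes with 64 probe sets, of which 57 passed the filter on dim signals, and at least 1 passed for each of the 35. They stand among 18193 genes on the array and 12136 tested. The probe set listed for Cpt1b carries several symbols, so Cpt1b was not measured here.

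The series holds 12 single-colour arrays in 4 groups of 3, which are 5 µM berberine for 3 h, 6 h or 12 h and the solvent DMSO. All 4 groups were 3T3-L1 cells, an established clonal line of mouse embryo fibroblasts that forms fat cells in culture. A cocktail given for 48 h held IBMX at 0.5 mM, dexamethasone at 1 µM and insulin at 5 µg/ml, and the cells were used 8 to 10 days after differentiation. Before treatment all of them spent 12 h in medium whose only named supplement was 0.2% albumin. The question stated for the series is which genes change expression under berberine. How long the DMSO cells were incubated is not given in the labels, so an effect of berberine and one of time in culture cannot be told apart. All 3 contrasts with DMSO share the same 3 DMSO arrays. The labels do not say that the 3 arrays of a group came from separate cultures, so p-values measure the spread among these 3 samples a group, and that spread may be technical. The number of arrays limits the precision. In such bulk RNA, fewer cells of a type and less RNA per cell cannot be told apart.

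Fatty acid oxidation cuts acyl-CoA into acetyl-CoA. Long chains enter mitochondria as carnitine esters and lose carbon units there in a cycle of dehydrogenation, hydration, dehydrogenation and thiolysis, whose electrons reach ubiquinone through the electron transfer flavoproteins. Peroxisomes shorten very long and branched chains first. White fat cells mainly store and release fatty acids, and PPAR receptors drive many genes of the pathway in liver, muscle and fat.

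As a check of the labelled cell type, 10 of the 12 listed markers of mature adipocytes were tested, and all 10 had a mean log2 signal with DMSO above the detection threshold of 5.77, the median of all non-control values (a linear signal of 54.6). A gene was tested only where 3 or more of 12 arrays reached that threshold, so this outcome was largely set by the filter. Of 10 listed fibroblast and preadipocyte markers 6 were tested, and of 7 macrophage markers 4. All of those tested also averaged above it with DMSO. Passing the threshold therefore does not single out adipocytes. The log2 of the summed signal of the adipocyte markers ranged between 17.02 and 17.16 after 12 h of berberine and between 17.02 and 17.35 with DMSO. With DMSO it was 15.39 to 15.64 for the fibroblast and preadipocyte markers and 9.58 to 9.90 for the macrophage markers. Of 6 endothelial markers 1 was tested, Kdr, whose mean with DMSO was 5.45, under the threshold. For actin, whose 3' and 5' control probe sets reflect how intact the RNA was, the log2 difference of the 2 was 1.51 to 1.58 after 12 h and 1.56 to 1.72 with DMSO. Correlations between arrays across kept probe sets, which are not independent replicates, ran from 0.960 to 0.968 within groups and from 0.950 to 0.966 between groups, and no array was left out.

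After 12 h of berberine, 15 of the 35 measured genes were lower than with DMSO and 2 were higher. Lower were genes of carnitine exchange (Cpt2, Crat), of the acyl-CoA dehydrogenases (Acadm, Acads, Acadvl), of the later steps of the mitochondrial cycle (Hadha, Hadhb, Hadh, Acaa2) and of its electron exit (Etfdh). Peroxisomal genes were also lower (Abcd2, Ehhadh, Scp2, Hsd17b4), as was the alpha-oxidation gene Hacl1. The 2 genes that rose were Acot2, which encodes a mitochondrial acyl-CoA thioesterase, and Crot, which encodes the peroxisomal carnitine octanoyltransferase. The largest differences were a 2.98-fold lower Abcd2 and a 2.64-fold higher Acot2, and 6 of the 17 passed 1.5-fold.

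A gene was called where limma's two-sided test, adjusted by the Benjamini-Hochberg method over the 12136 genes, gave a p under 0.05. The 15 lower genes are 42.9% of the 35, while 14.6% of all genes tested were lower at 12 h. The 2 higher genes are 5.71%, while 13.7% of all genes were higher. In each of the 15 lower genes all 3 arrays of the 12 h group lay below all 3 DMSO arrays. The test picked these genes on the same arrays, so this adds no support to the calls. The share of such genes over all genes tested is not given here. The log2 changes of the 15 ranged between -1.58 and -0.23. The median change of the 35 genes was -0.17, against -0.01 over all genes tested, and 27 of the 35 had a negative sign. Of the 17 calls, 13 stood whichever array was left out. The others were Acadvl, Hadha, Hadh and Ehhadh, whose values without single arrays are given with each gene. Another normalization between arrays (quantile or cyclic loess) gave 2 higher and 16 lower genes. With the mean of a gene's kept probe sets 1 was higher and 13 were lower (2.86% and 37.1%, against 10.7% and 12.1% of all genes). The calls of Cpt2, Crot, Hadh and Hadhb ended there, and Decr1 was added.

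At 6 h, 1 gene was higher (Acot2) and 3 were lower (Cpt2, Crat and Hsd17b4), with 7.24% of all genes higher and 6.98% lower at that time. All 4 were called again at 12 h. The shares of the 35 genes were 2.86% and 8.57%. After quantile normalization 2 were higher and 5 lower (5.71% and 14.3%, against 7.30% and 6.62% of all genes), with Acadm, Hadhb and Eci1 added. After cyclic loess 1 was higher and 6 were lower (2.86% and 17.1%, against 7.19% and 7.14% of all genes), with Acadm, Hadhb and Acadvl added. The median change was -0.05, against 0.01 over all genes. At 3 h limma called 0 of the 35, and 2 of them, Crat and Scp2, had an unadjusted p under 0.05. Over all genes 1.09% were higher and 0.816% lower at 3 h. The median change at 3 h was 0.01, against 0.02 over all genes. By limma's moderated F test for any difference from DMSO, 16 of the 35 differed among the groups, and 25.1% of all genes did.

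**Figure D1:**
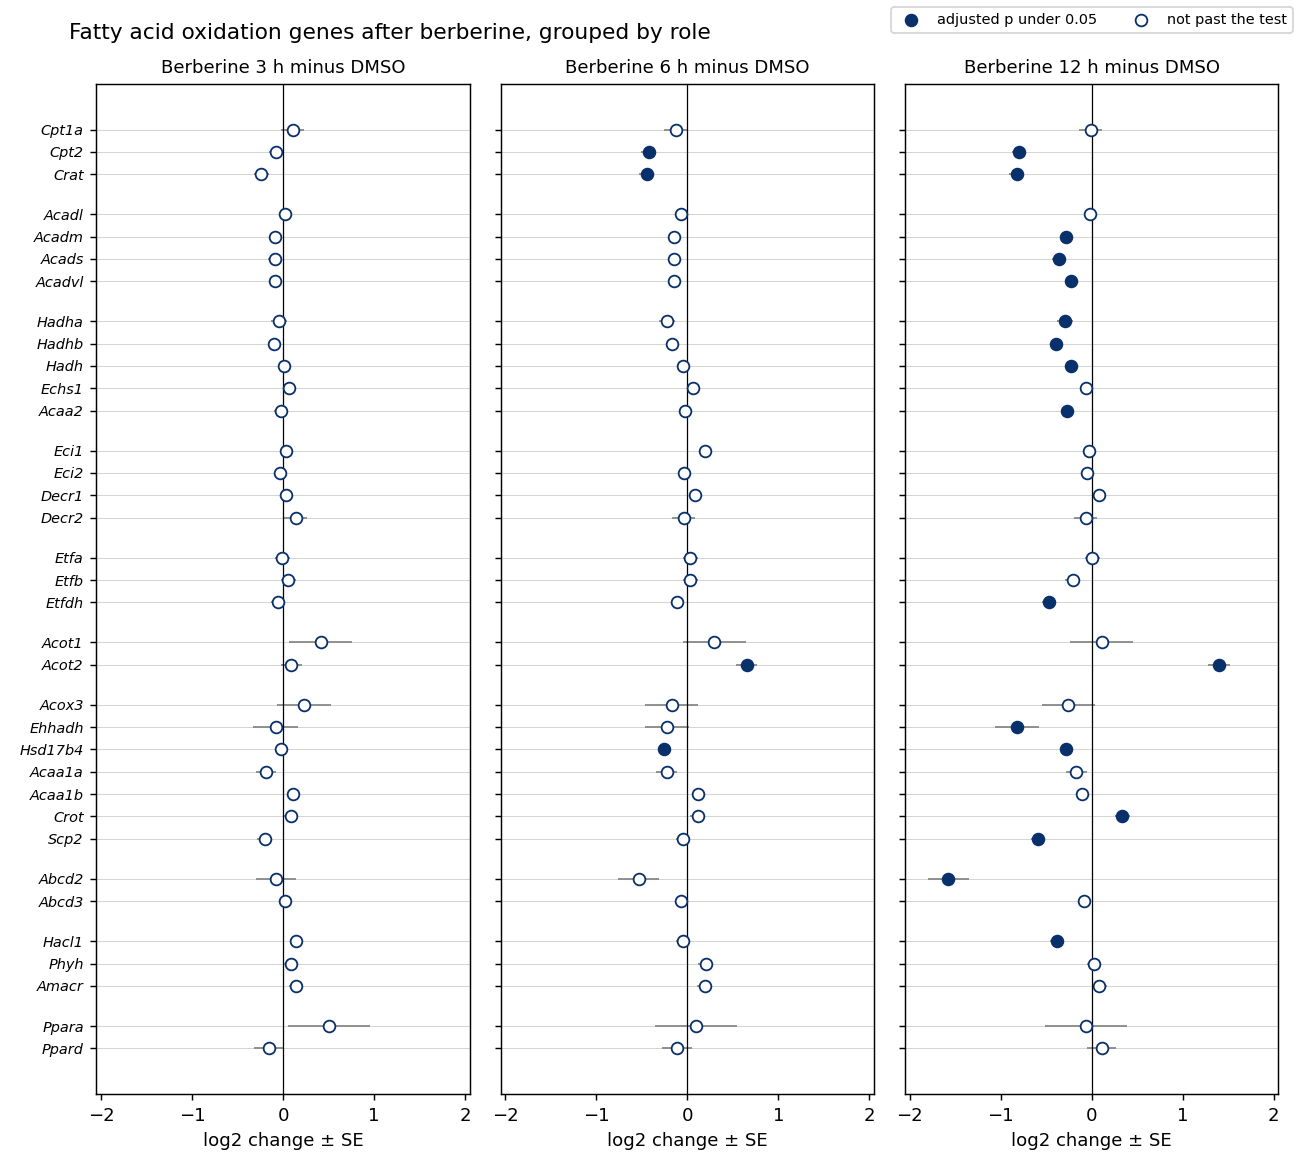
Log2 change from DMSO (horizontal axis, with limma's standard error as bars) of the 35 measured genes after 3, 6 and 12 h of berberine, ordered by role. Filled points passed an adjusted p of 0.05: 0 genes at 3 h, 4 at 6 h and 17 at 12 h, of which 15 lie left of the zero line and 2, Acot2 and Crot, lie right of it.

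Promoter windows are shown for 4 genes the results turn on: Acot2, the gene that rose most, Cpt2 and Etfdh, which fell at the entry to the cycle and at its electron exit, and Hadhb, whose window is shared with its neighbour. They come from RefSeq's mouse promoters (build GRCm38) and run from 250 bases before to 50 after the start of the gene, 5′ to 3′ on its strand. The motif search covered 29 of the 36 genes, and any windows of the set on a single chromosome were left out of it. Capitals mark matches to the motifs described next. The windows lie at chr12:83987611-83987910 on the plus strand (Acot2), chr4:107923540-107923839 on the minus strand (Cpt2), chr3:79628718-79629017 on the minus strand (Etfdh) and chr5:30155003-30155302 on the plus strand (Hadhb).
Acot2: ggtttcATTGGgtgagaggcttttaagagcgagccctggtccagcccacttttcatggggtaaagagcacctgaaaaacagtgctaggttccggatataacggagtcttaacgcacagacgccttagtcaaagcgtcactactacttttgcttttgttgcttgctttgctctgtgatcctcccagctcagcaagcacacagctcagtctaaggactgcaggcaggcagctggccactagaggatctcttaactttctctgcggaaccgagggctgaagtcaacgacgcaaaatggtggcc
Cpt2: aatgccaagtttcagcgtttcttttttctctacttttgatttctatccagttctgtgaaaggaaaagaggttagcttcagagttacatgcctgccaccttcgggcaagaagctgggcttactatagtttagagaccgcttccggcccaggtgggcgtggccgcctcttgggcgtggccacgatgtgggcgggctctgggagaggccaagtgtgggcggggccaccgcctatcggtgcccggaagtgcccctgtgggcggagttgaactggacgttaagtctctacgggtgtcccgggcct
Etfdh: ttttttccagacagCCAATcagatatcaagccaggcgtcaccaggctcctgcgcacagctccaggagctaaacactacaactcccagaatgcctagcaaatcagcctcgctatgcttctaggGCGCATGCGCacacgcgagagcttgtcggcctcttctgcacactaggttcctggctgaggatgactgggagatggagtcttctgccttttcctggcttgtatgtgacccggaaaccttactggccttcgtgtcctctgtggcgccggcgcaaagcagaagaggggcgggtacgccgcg
Hadhb: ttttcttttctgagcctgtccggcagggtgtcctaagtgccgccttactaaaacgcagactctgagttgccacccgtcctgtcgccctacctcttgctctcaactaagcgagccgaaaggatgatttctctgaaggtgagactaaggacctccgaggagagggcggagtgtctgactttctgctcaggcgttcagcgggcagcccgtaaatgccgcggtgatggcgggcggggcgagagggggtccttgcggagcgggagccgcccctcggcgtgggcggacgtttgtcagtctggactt
The Hadhb window shares 228 bases with that of Hadha, which lies on the other strand at chr5:30154931-30155230, so the genes of both subunits of the trifunctional protein start next to each other and point apart. Both were lower at 12 h.

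Motifs were searched as exact letters on both strands. Of the 29 genes, a gene counted where any of its windows held a match, while the share of all promoters is over single windows. That share also includes the chromosome left out for the set. The 2 shares therefore differ in basis. The PPAR response element, a pair of AGGTCA half-sites in 1 direction with 1 base between them, was found for 0 of the 29 genes and in 0.0396% of 32851 mouse promoters. The estrogen-related receptor element TCAAGGTCA was found for 0 of the 29 and in 0.423% of all. The element TGATGCAA of ATF4 and C/EBP factors was found for 2 genes, Phyh and Echs1, and in 0.895% of all promoters. The E-box CACGTG was in 0 of the 29 and in 7.15% of all. The NRF1 element, GCGCA followed by its reverse complement, was in the windows of Etfdh and Ppara, 2 of the 29, and in 0.971% of all, and the Etfdh match begins 128 bases before the start. The CCAAT box was found for 14 of the 29 genes (48.3%) and in 37.4% of all promoters. Matches lay 244 bases before the start of Acot2 (as ATTGG on this strand) and 236 bases before that of Etfdh. The windows of Cpt2 and Hadhb held 0 of these motifs. A match describes letters in a window and not a site in use, and the motifs were not tested against expression.

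In the carnitine shuttle, the inner-membrane and matrix enzymes fell while the outer-membrane enzyme gene Cpt1a, which commits long chains to oxidation, did not pass the test at any time. Cpt2 encodes carnitine palmitoyltransferase 2, which turns acylcarnitine back into acyl-CoA inside the mitochondrion. Its log2 signal was 12.08, 11.76 and 11.99 with DMSO, 11.94, 11.83 and 11.83 after 3 h, 11.66, 11.50 and 11.40 after 6 h and 11.16, 11.14 and 11.13 after 12 h. All 6 arrays of the 6 h and 12 h groups lay below the 3 DMSO arrays. Cpt2 was 1.34-fold lower (-0.43 ± 0.08 SE on the log2 scale, adjusted p = 0.00193) at 6 h and 1.74-fold lower (-0.80 ± 0.08 SE on the log2 scale, adjusted p = 1.16e-06) at 12 h. Its other kept probe set is dim and had a log2 change of -0.03 at 12 h (adjusted p = 0.974), and with the mean of both probe sets the calls ended (adjusted p = 0.343 at 6 h and 0.186 at 12 h).

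Crat, the carnitine acetyltransferase gene whose enzyme buffers the acetyl-CoA pool, had log2 signals of 11.44, 11.19 and 11.37 with DMSO, 11.08, 11.07 and 11.13 after 3 h, 10.91, 10.93 and 10.80 after 6 h and 10.40, 10.44 and 10.67 after 12 h. No berberine array reached the lowest DMSO array at any of the 3 times. The difference was 1.37-fold lower (-0.45 ± 0.08 SE on the log2 scale, adjusted p = 0.00136) at 6 h and 1.77-fold lower (-0.83 ± 0.08 SE on the log2 scale, adjusted p = 9.3e-07) at 12 h. Its other 2 kept probe sets were also lower at 12 h (log2 changes -0.63 and -0.80, adjusted p = 0.00456 for each). Cpt1a had log2 signals of 8.81, 9.02 and 9.06 after 12 h of berberine, against 9.06, 8.94 and 8.94 with DMSO. These arrays overlapped, with a change of -0.01 ± 0.13 SE on the log2 scale, adjusted p = 0.959, and its other probe sets had log2 changes of -0.33 and -0.41 (adjusted p = 0.135 and 0.198).

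Of the 4 mitochondrial acyl-CoA dehydrogenase genes, which open the cycle for chains of different length, 3 fell at 12 h and Acadl, the long-chain one, had a log2 change of -0.02 (adjusted p = 0.861). Acads, the short-chain enzyme, had log2 signals of 11.51, 11.43 and 11.27 with DMSO, 11.33, 11.37 and 11.25 after 3 h, 11.30, 11.27 and 11.21 after 6 h and 11.12, 11.00 and 11.01 after 12 h. Each 12 h array lay below every DMSO array, and Acads was 1.29-fold lower (-0.36 ± 0.07 SE on the log2 scale, adjusted p = 0.000798) at 12 h. Acadm, the medium-chain enzyme, measured 14.26, 14.13 and 14.28 with DMSO, 14.21, 14.17 and 14.03 after 3 h, 14.06, 14.04 and 14.12 after 6 h and 13.89, 14.01 and 13.94 after 12 h. It was 1.21-fold lower (-0.28 ± 0.06 SE on the log2 scale, adjusted p = 0.00253), with no overlap between the 12 h and DMSO arrays, and at 6 h it was called after quantile normalization (adjusted p = 0.00221) and cyclic loess (0.00352). Acadvl, the very-long-chain enzyme of the inner membrane, measured 13.06, 12.89 and 13.06 with DMSO, 13.00, 12.91 and 12.83 after 3 h, 12.88, 12.91 and 12.78 after 6 h and 12.72, 12.79 and 12.80 after 12 h. The 12 h arrays lay below all DMSO arrays, 1.18-fold lower (-0.23 ± 0.07 SE on the log2 scale, adjusted p = 0.0116), but the adjusted p was 0.056 without DMSO replicate 1 and 0.0533 without 12 h replicate 1. At 6 h it was called after cyclic loess (adjusted p = 0.032).

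In the hydration, second dehydrogenation and thiolysis steps 4 of 5 genes fell at 12 h. Hadhb and Hadha encode the beta and alpha subunits of the trifunctional protein, which handles long chains at the inner membrane. Hadhb had log2 signals of 13.09, 12.92 and 13.07 with DMSO, 12.97, 12.99 and 12.82 after 3 h, 12.83, 12.89 and 12.86 after 6 h and 12.64, 12.69 and 12.57 after 12 h. It was 1.31-fold lower (-0.39 ± 0.06 SE on the log2 scale, adjusted p = 0.000167) at 12 h. Its other probe sets had log2 changes of -0.32 (adjusted p = 0.014) and, in a dim probe set, 0.03 (adjusted p = 0.974), and the mean of the 3 ended the call (adjusted p = 0.25). At 6 h Hadhb was called after quantile normalization (adjusted p = 0.0253), after cyclic loess (0.01) and without DMSO replicate 2 (0.038). Hadha measured 10.77, 10.66 and 10.89 with DMSO, 10.80, 10.64 and 10.74 after 3 h, 10.59, 10.48 and 10.58 after 6 h and 10.30, 10.63 and 10.50 after 12 h. The 12 h arrays lay below all DMSO arrays, 1.23-fold lower (-0.30 ± 0.09 SE on the log2 scale, adjusted p = 0.0159), with an adjusted p of 0.0803 without DMSO replicate 3 and of 0.0986 without 12 h replicate 1.

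Hadh encodes the hydroxyacyl-CoA dehydrogenase of shorter chains, and its log2 signals were 13.56, 13.47 and 13.70 with DMSO, 13.66, 13.62 and 13.47 after 3 h, 13.52, 13.56 and 13.50 after 6 h and 13.27, 13.42 and 13.35 after 12 h. At 12 h it was 1.17-fold lower (-0.23 ± 0.07 SE on the log2 scale, adjusted p = 0.0171). That call ended under 4 alternatives: the adjusted p was 0.0595 without the intensity trend, 0.288 with the mean of its probe sets, 0.0798 without DMSO replicate 3 and 0.085 without 12 h replicate 1. A brighter probe set whose name ends in _x_at, and which can bind transcripts of other genes, had a log2 change of 0.02 (adjusted p = 0.868), and a dimmer one of that kind -0.39 (adjusted p = 0.512). Acaa2, the mitochondrial thiolase gene, measured 11.91, 11.69 and 11.88 with DMSO, 11.84, 11.86 and 11.71 after 3 h, 11.80, 11.84 and 11.78 after 6 h and 11.48, 11.65 and 11.55 after 12 h. It was 1.21-fold lower (-0.27 ± 0.07 SE on the log2 scale, adjusted p = 0.00786) at 12 h, and its other 2 probe sets gave log2 changes of -0.33 and -0.44 (adjusted p = 0.0119 and 0.000514). The log2 change of Echs1, the enoyl-CoA hydratase gene, was -0.06 (adjusted p = 0.506).

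None of the 4 auxiliary enzymes of unsaturated chains (Eci1, Eci2, Decr1 and Decr2) was called at 12 h in the probe set used, with log2 changes at 12 h between -0.07 and 0.08 (4 genes, 0 of them at an unadjusted p under 0.05 by limma). Decr1, the mitochondrial dienoyl-CoA reductase gene, differed between its probe sets. The one used measured 13.54, 13.69 and 13.52 after 12 h of berberine, against 13.53, 13.38 and 13.62 with DMSO, which overlapped (log2 change 0.08, adjusted p = 0.456). The dimmer one measured 9.76, 9.72 and 9.84 after 12 h, against 10.47, 10.23 and 10.26 with DMSO, a log2 change of -0.55 ± 0.08 SE (adjusted p = 0.000117). With the mean of its kept probe sets Decr1 was called lower at 12 h, against DMSO and against 3 h. Which probe set follows the Decr1 transcript was not tested.

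At the electron exit 1 of 3 genes fell at 12 h. Etfdh, the ubiquinone oxidoreductase that takes electrons from all the acyl-CoA dehydrogenases by way of the flavoprotein, had log2 signals of 12.44, 12.26 and 12.53 with DMSO, 12.45, 12.35 and 12.26 after 3 h, 12.35, 12.30 and 12.26 after 6 h and 11.88, 11.95 and 11.98 after 12 h. The 12 h arrays stood below all 9 others, and Etfdh was 1.39-fold lower (-0.47 ± 0.07 SE on the log2 scale, adjusted p = 7.01e-05). The flavoprotein's own subunit genes were not called at 12 h. Etfb measured 13.77, 13.61 and 13.83 with DMSO, 13.96, 13.78 and 13.63 after 3 h, 13.71, 13.77 and 13.82 after 6 h and 13.57, 13.62 and 13.38 after 12 h. Its arrays at 12 h overlapped those with DMSO (-0.21 ± 0.08 SE on the log2 scale, adjusted p = 0.0648), and the call was made after quantile normalization (adjusted p = 0.0125), after cyclic loess (0.00545) and without DMSO replicate 2 (0.0269), 3 h replicate 1 (0.0441) or 3 h replicate 3 (0.0452). Etfa had a log2 change of 0.01 (adjusted p = 0.971).

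Acot2 was 1 of the 2 genes that rose, beside 15 that fell at 12 h. Its enzyme hydrolyses acyl-CoA to free fatty acid and CoA in the mitochondrial matrix. Its log2 signal was 10.85, 10.67 and 10.49 with DMSO, 10.66, 10.99 and 10.65 after 3 h, 11.09, 11.46 and 11.41 after 6 h and 11.97, 12.26 and 11.98 after 12 h. The 6 h arrays lay above all DMSO and 3 h arrays and below all 12 h arrays. Acot2 was 1.57-fold higher (0.65 ± 0.12 SE on the log2 scale, adjusted p = 0.00124) at 6 h and 2.64-fold higher (1.40 ± 0.12 SE on the log2 scale, adjusted p = 1.31e-07) at 12 h, and at 3 h the arrays overlapped those with DMSO. Its other kept probe set measured 8.69, 8.72 and 8.75 after 12 h, against 7.64, 7.97 and 8.03 with DMSO, and rose too (log2 change 0.84 ± 0.14 SE, adjusted p = 0.000353). Acot1, its cytosolic and nearly identical paralog, lay near the threshold at 6.03, 6.23 and 6.00 after 12 h of berberine, against 5.55, 6.13 and 6.26 with DMSO and was not called (0.11 ± 0.34 SE on the log2 scale, adjusted p = 0.865). Probe sets that the annotation assigns to both paralogs were not used.

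In peroxisomal beta-oxidation 3 of 7 genes fell and 1 rose at 12 h. Scp2, which encodes sterol carrier protein 2 and a thiolase of branched chains, was among the brightest of the set and measured 14.33, 14.20 and 14.18 with DMSO, 13.89, 14.07 and 14.14 after 3 h, 14.05, 14.23 and 14.28 after 6 h and 13.69, 13.50 and 13.75 after 12 h. Its 12 h arrays stood below all others, 1.51-fold lower (-0.59 ± 0.08 SE on the log2 scale, adjusted p = 3.03e-05). Another probe set was lower as well (log2 change -0.47, adjusted p = 0.000174), and 2 dimmer ones had log2 changes of -0.29 and -0.11 (adjusted p = 0.346 and 0.519). Hsd17b4 encodes the D-bifunctional protein of the hydration and dehydrogenation steps. It measured 11.55, 11.53 and 11.47 with DMSO, 11.49, 11.50 and 11.49 after 3 h, 11.24, 11.34 and 11.21 after 6 h and 11.19, 11.19 and 11.33 after 12 h. The 6 h and 12 h arrays lay below all 3 h and DMSO arrays, with Hsd17b4 1.19-fold lower (-0.26 ± 0.06 SE on the log2 scale, adjusted p = 0.011) at 6 h and 1.21-fold lower (-0.28 ± 0.06 SE on the log2 scale, adjusted p = 0.00273) at 12 h.

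Ehhadh, the L-bifunctional enzyme gene and a PPARalpha target in liver, was dim and measured 7.67, 7.14 and 7.11 with DMSO, 7.60, 6.96 and 7.12 after 3 h, 7.29, 6.77 and 7.19 after 6 h and 6.38, 6.56 and 6.52 after 12 h. Its lowest 3 arrays were those of 12 h, and Ehhadh was 1.77-fold lower (-0.82 ± 0.24 SE on the log2 scale, adjusted p = 0.0176), but the adjusted p was 0.107 without DMSO replicate 1 and 0.0523 without 12 h replicate 1. Crot, whose enzyme makes carnitine esters of chains shortened in the peroxisome, measured 10.46, 10.45 and 10.46 with DMSO, 10.54, 10.64 and 10.47 after 3 h, 10.47, 10.70 and 10.54 after 6 h and 10.67, 10.84 and 10.87 after 12 h. At 12 h 2 arrays lay above every other array, and the one at 10.67 lay above every DMSO array. It was 1.26-fold higher (0.34 ± 0.08 SE on the log2 scale, adjusted p = 0.00358). A dim probe set of Crot had a log2 change of 1.52 ± 1.08 SE, and the mean of both ended the call (adjusted p = 0.164).

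The peroxisomal thiolase genes Acaa1a and Acaa1b, near-identical paralogs, and the branched-chain oxidase gene Acox3 were not called against DMSO. Acaa1b measured 11.54, 11.57 and 11.62 with DMSO, 11.66, 11.72 and 11.71 after 3 h, 11.82, 11.58 and 11.68 after 6 h and 11.54, 11.43 and 11.45 after 12 h. It had a log2 change of -0.11 at 12 h (adjusted p = 0.259), with the 12 h arrays at or below the lowest DMSO array. Acaa1a had a log2 change of -0.17 (adjusted p = 0.296) and Acox3 of -0.26 (adjusted p = 0.575). The name of the probe set used for Acaa1a ends in _x_at, so it can bind transcripts of other genes.

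Abcd2 had the largest change of the 35 genes. It encodes a transporter of very-long-chain acyl-CoA in the peroxisomal membrane. Its log2 signal was 9.23, 9.08 and 8.63 with DMSO, 9.16, 9.11 and 8.44 after 3 h, 8.55, 8.45 and 8.34 after 6 h and 7.56, 6.86 and 7.78 after 12 h. Below all 9 others lay the 12 h arrays, and Abcd2 was 2.98-fold lower (-1.58 ± 0.22 SE on the log2 scale, adjusted p = 4.18e-05). At 6 h the arrays did not overlap those with DMSO, without a call (-0.53 ± 0.22 SE on the log2 scale, adjusted p = 0.127), and a fit to those 2 groups alone called it (adjusted p = 0.0383). Its other 2 kept probe sets averaged under the threshold at 12 h and were at least 1.81-fold and at least 2.15-fold lower (adjusted p = 0.00535 and 0.000369), bounds that set values under the threshold to it. Abcd3, a related transporter and an abundant peroxisomal membrane protein, had a log2 change of -0.09 (adjusted p = 0.371).

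Of the alpha-oxidation and branched-chain genes, Hacl1 fell. It encodes the lyase that removes 1 carbon from 2-hydroxyacyl-CoA, and it measured 10.93, 10.74 and 10.96 with DMSO, 11.09, 11.05 and 10.92 after 3 h, 10.83, 10.89 and 10.76 after 6 h and 10.49, 10.55 and 10.44 after 12 h. All other arrays lay above those of 12 h, and Hacl1 was 1.30-fold lower (-0.38 ± 0.08 SE on the log2 scale, adjusted p = 0.001). Phyh, the phytanoyl-CoA hydroxylase gene of the step before, and Amacr, the racemase gene that readies branched chains for beta-oxidation, had log2 changes of 0.03 and 0.08 (adjusted p = 0.842 and 0.489).

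The receptor genes did not pass the test at any time. Ppara lay near the threshold at 6.44, 5.58 and 5.32 with DMSO, 6.53, 6.40 and 5.92 after 3 h, 5.26, 5.85 and 6.51 after 6 h and 5.34, 5.53 and 6.29 after 12 h. In 7 of the 12 arrays it was at or above 5.77, and no direction can be read from it (-0.06 ± 0.45 SE on the log2 scale, adjusted p = 0.942 at 12 h). Ppard measured 8.02, 7.88 and 7.95 with DMSO, 7.73, 7.85 and 7.81 after 3 h, 7.92, 7.84 and 7.75 after 6 h and 7.69, 8.12 and 8.36 after 12 h. The 12 h arrays span those with DMSO (0.11 ± 0.16 SE on the log2 scale, adjusted p = 0.69).

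**Figure D2:**
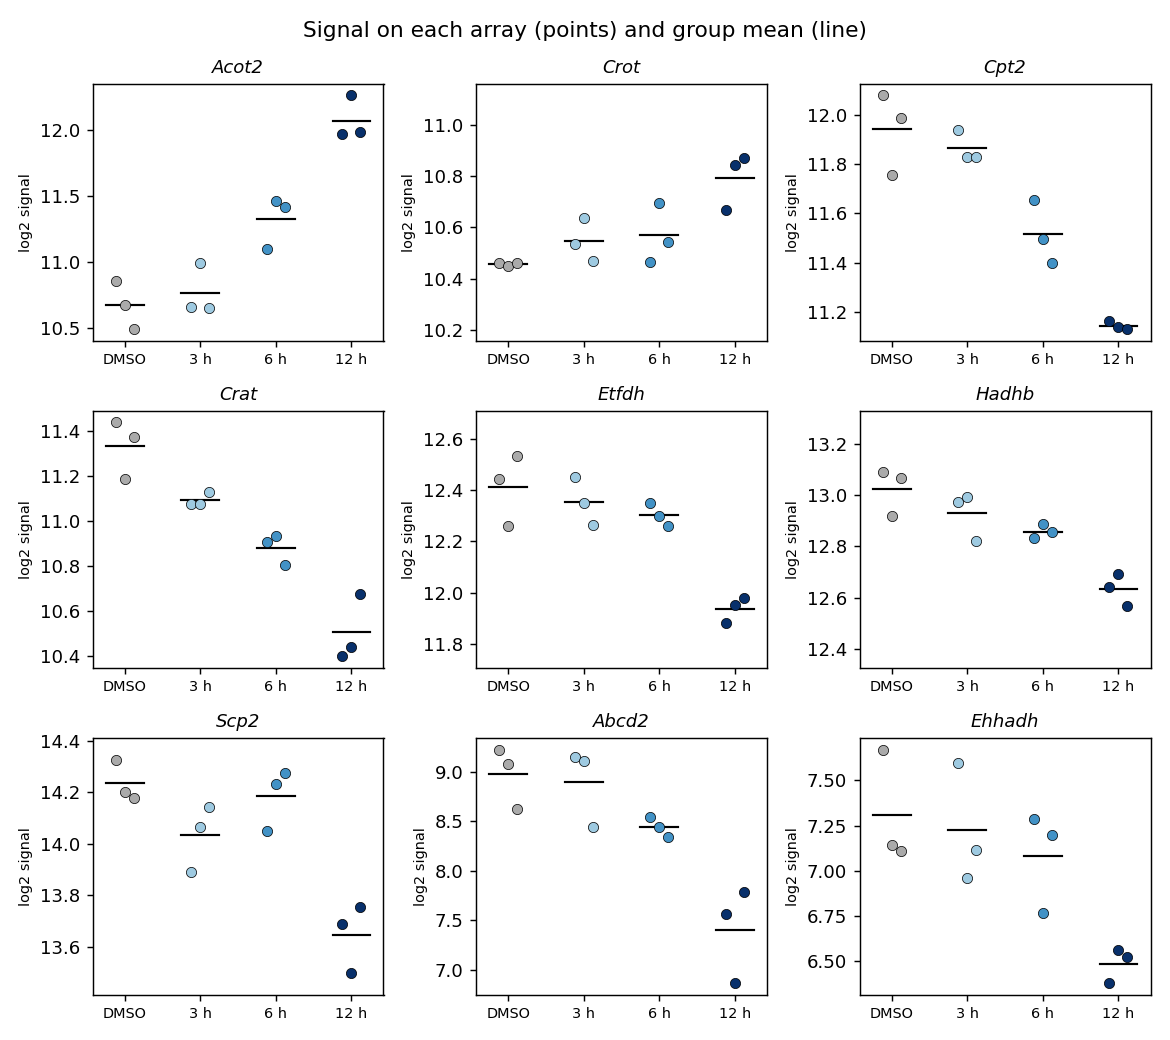
Log2 signal (vertical axis, its own range for each gene) of 9 genes on each of the 12 arrays, by group, with the group mean as a line. Acot2 and Crot are highest after 12 h and the other 7 genes lowest there. In Cpt2, Crat, Hadhb, Abcd2 and Acot2 the 6 h arrays lie between those of 12 h and those of DMSO.

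**Figure D3:**
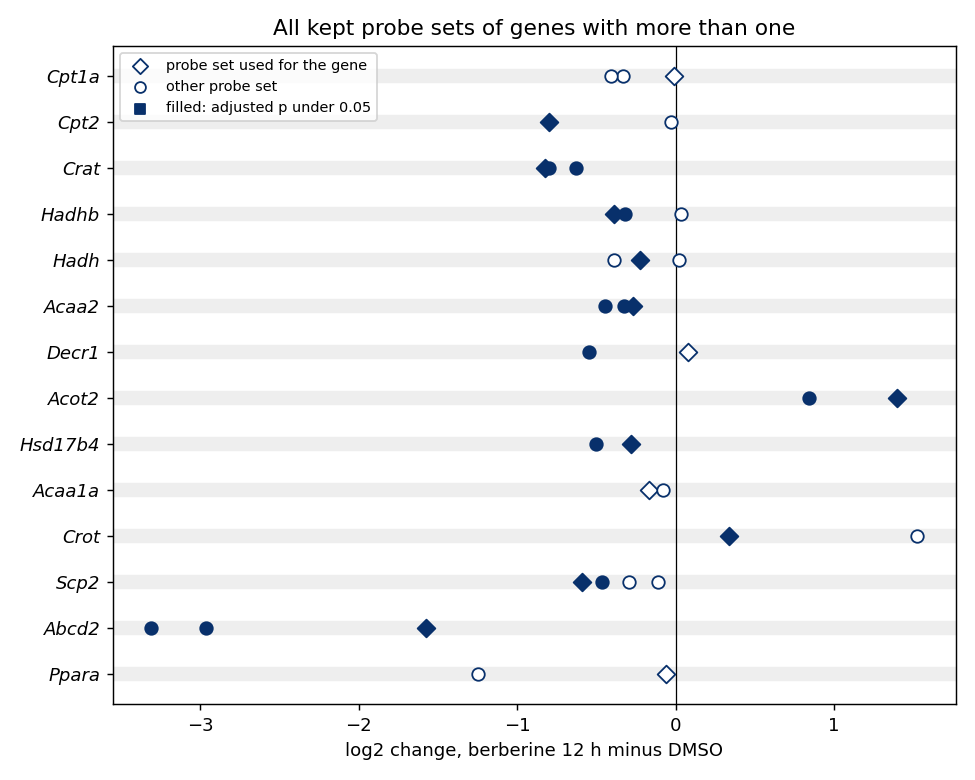
Log2 change at 12 h (horizontal axis) of every kept probe set of the 14 genes that have more than 1. Of the 22 probe sets not used for the gene (circles), 19 have the sign of the one used (diamonds), and the exceptions are 1 each of Hadhb, Hadh and Decr1. The 2 leftmost circles of Abcd2 rest on 12 h means under the detection threshold and are read as bounds of at least 1.81-fold and 2.15-fold.

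As the plot of all kept probe sets shows, 10 of these 22 were lower and 1 was higher at 12 h when each probe set was tested on its own, while of all 25053 kept probe sets 11.8% were lower and 11.5% higher. Decr1 was the 1 gene called there and not through its first probe set.

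The differences between berberine times do not use the DMSO means, although the DMSO arrays share in the estimate of the spread. Between 6 h and 12 h, 8 genes were lower at 12 h and 1, Acot2, was higher (3.18% and 2.5% of all genes). Acot2 was 1.68-fold higher (0.75 ± 0.12 SE on the log2 scale, adjusted p = 0.000896). Abcd2 was 2.06-fold lower (-1.04 ± 0.22 SE on the log2 scale, adjusted p = 0.0103), Scp2 1.45-fold lower (-0.54 ± 0.08 SE on the log2 scale, adjusted p = 0.000646) and Etfdh 1.29-fold lower (-0.37 ± 0.07 SE on the log2 scale, adjusted p = 0.00509) at 12 h. These 4 calls stood without each array in turn. Without the intensity trend the count was 1 higher and 2 lower, Acot2, Scp2 and Etfdh (2.86% and 5.71%, against 1.10% and 1.33% of all genes). With the mean of a gene's probe sets it was 1 higher and 4 lower (2.86% and 11.4%, against 1.58% and 2.38%). The other 5 were Cpt2, Crat, Hacl1, Hadhb and Acaa2 (log2 changes -0.37, -0.38, -0.33, -0.22 and -0.25), and their highest adjusted p without 1 array was 0.0585, 0.0557, 0.0695, 0.153 and 0.166.

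Between 3 h and 12 h, 15 genes were lower and 2 higher at 12 h (9.71% and 8.01% of all genes), and 15 of these 17 were also called against DMSO. Etfb (log2 change -0.27, adjusted p = 0.0305) and Acaa1b (-0.22, adjusted p = 0.0259) were called here and not against DMSO, and Acadvl and Hadha the reverse. Of the 17 calls, 9 stood without each array in turn, those of Acot2, Abcd2, Cpt2, Crat, Scp2, Hacl1, Etfdh, Hadhb and Hsd17b4, and the count was 11 without 3 h replicate 1 and 11 without 3 h replicate 2. Without the intensity trend 1 was higher and 10 were lower (2.86% and 28.6%, against 6.27% and 7.56% of all genes). Among the 9, Hacl1 was 1.44-fold lower (-0.53 ± 0.08 SE on the log2 scale, adjusted p = 9.59e-05). Between 3 h and 6 h, Acot2 was higher and Cpt2 lower at 6 h (1.19% of all genes higher and 1.15% lower). Acot2 was 1.47-fold higher (0.56 ± 0.12 SE on the log2 scale, adjusted p = 0.0203) and Cpt2 1.27-fold lower (-0.35 ± 0.08 SE on the log2 scale, adjusted p = 0.0287). Neither call stood without each array in turn: 0 of the 35 genes were called without 3 h replicate 1, 3 h replicate 3, 6 h replicate 2 or 6 h replicate 3, and 1 without 3 h replicate 2, at adjusted p values up to 0.0922 for Acot2 and 0.128 for Cpt2. Both calls ended without the intensity trend, and that of Cpt2 with the mean of its probe sets.

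Among other genes of the pathway the share lower at 12 h exceeded that of all genes, while the share higher was near it. Of 29 tested genes that neighbour beta-oxidation (acyl-CoA supply, carnitine entry, further dehydrogenases and thioesterases), 11 were lower and 4 higher at 12 h (37.9% and 13.8%, against 14.6% and 13.7% of all genes), with a median log2 change of -0.22. At 6 h, 4 were lower and 2 higher (13.8% and 6.90%, against 6.98% and 7.24%), with 2 and 1 in their place without the intensity trend, and at 3 h 1 was higher (3.45%, against 1.09%). Acsl4 and Acsl3, ligases that activate long fatty acids, were 2.09-fold and 2.02-fold higher at 12 h (log2 changes 1.07 ± 0.11 and 1.02 ± 0.08 SE, adjusted p = 1.07e-06 and 4.51e-08). Acsl3 was already higher at 3 h (0.49, adjusted p = 0.00185) and at 6 h (0.92, adjusted p = 6.73e-07), and the mean of its probe sets ended the 3 h call (adjusted p = 0.399). Acad11, an acyl-CoA dehydrogenase, and Acbd4, an acyl-CoA binding protein, were 1.63-fold and 1.58-fold lower at 12 h (log2 changes -0.70 and -0.66, adjusted p = 1.39e-06 and 1.88e-05). Slc25a20, the carrier that passes acylcarnitine between the palmitoyltransferases, was 1.43-fold lower (-0.52 ± 0.08 SE on the log2 scale, adjusted p = 9.49e-05), and was picked for its place in the shuttle after its values were seen.

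Among 20 tested genes of peroxisome biogenesis and membrane, 11 were lower and 1 was higher at 12 h (55% and 5%, against 14.6% and 13.7% of all genes, median log2 change -0.22). At 6 h 3 were lower (15%, against 6.98%), or 5 with the mean of a gene's probe sets, and at 3 h 1 was lower (5%, against 0.816%). Pex11a, a factor of peroxisome division, was the 1 lower at 3 h (log2 change -0.32, adjusted p = 0.00352) and had a log2 change of -0.57 at 6 h (adjusted p = 2.87e-06) and of -0.66 ± 0.05 SE at 12 h (adjusted p = 1.12e-07). Pxmp2, a channel of the peroxisomal membrane, was 1.58-fold lower at 12 h. Pex3, which brings membrane proteins to the organelle, and Pex26, an anchor of the import machinery, had log2 changes of -0.58 and -0.42 (adjusted p = 3.43e-06 and 0.0075). Without the intensity trend 8 of the 20 were lower and 0 higher, and 7 were lower without DMSO replicate 1 and without 12 h replicate 3. The 1 higher gene was Pex13 (log2 change 0.17), named after its values were seen. Its call turned to lower with the mean of its probe sets (-0.25, adjusted p = 0.0137) and ended without the intensity trend, with no filter on dim probe sets, in a fit to those 2 groups alone, and without DMSO replicate 1 or 2, 12 h replicate 1 or 2, or 3 h replicate 2. Of 4 tested genes of ketone body metabolism, 1 was higher and 0 lower at 12 h (25%, against 13.7% of all genes higher). It was Aacs, which activates acetoacetate, 1.40-fold higher (adjusted p = 0.000597), and with the mean of its probe sets the log2 change was -0.02 (adjusted p = 0.98), while the thiolase gene Acat1 was then called lower (-0.16, adjusted p = 0.0415). Without DMSO replicate 3 the count was 2 higher.

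Of 14 tested PPAR target genes, 6 were lower and 2 higher at 12 h (42.9% and 14.3%, against 14.6% and 13.7% of all genes, median log2 change -0.25). The lipid droplet gene Cidec was 2.70-fold lower (adjusted p = 1.62e-10), the lipase inhibitor gene Angptl4 2.27-fold lower (adjusted p = 1.45e-08) and the glycerol channel gene Aqp7 1.94-fold lower (adjusted p = 0.00179). Pex11a stands on this list too. The 2 higher ones were Lpl and Plin2 (log2 changes 0.32 and 0.24), named after their values were seen. The count of lower genes stayed at 6 whichever array was left out, while that of higher genes was 4 without DMSO replicate 3, 3 without 12 h replicate 3 or 3 h replicate 1, and 0 without 12 h replicate 2. The call of Lpl ended after quantile normalization (adjusted p = 0.0983), without the intensity trend (0.0723), with the mean of its probe sets (0.118) and without DMSO replicate 1 (adjusted p = 0.086), DMSO replicate 2 (0.0781) or 12 h replicate 2 (0.0654), and that of Plin2 without 12 h replicate 2 (0.0536). At 6 h 3 of the 14 PPAR targets were lower and 4 higher (21.4% and 28.6%, against 6.98% and 7.24% of all genes), or 3 and 0 without the intensity trend. At 3 h 2 were lower (14.3%, against 0.816%), or 1 without that trend. Of 14 tested partners and coregulators of the receptors, 4 were higher and 3 lower at 12 h (28.6% and 21.4%, against 13.7% and 14.6%), with 1 lower in place of 3 with the mean of a gene's probe sets. Ppargc1a, the coactivator PGC-1alpha, was 2.20-fold higher at 12 h (log2 change 1.14 ± 0.12 SE, adjusted p = 2.21e-06), after 0.73 at 3 h and 0.98 at 6 h (adjusted p = 0.00299 and 4.54e-05). Its relative Pprc1 was 1.33-fold higher, the coactivator and phosphatase gene Lpin1 1.29-fold lower, and the receptor gene Esrra 1.28-fold higher (adjusted p = 0.0269). The call of Esrra ended without the intensity trend (adjusted p = 0.0737), with the mean of its probe sets (log2 change -0.10, adjusted p = 0.738) and without DMSO replicate 1 (adjusted p = 0.0521), DMSO replicate 3 (0.121) or 12 h replicate 3 (0.116), and the count of higher partners was 2 without DMSO replicate 1.

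Markers of mature adipocytes were lower beside these genes at 12 h in 7 of 10 cases and higher in 0 (70%, against 14.6% of all genes lower), with a median log2 change of -0.43. Without DMSO replicate 3 the counts were 5 lower and 2 higher, and without the intensity trend 5 lower and 0 higher. At 6 h 3 were lower and 3 higher (30% each, against 6.98% and 7.24% of all genes), or 1 and 0 without the intensity trend. At 3 h 1 was lower (10%, against 0.816%), or 0 without that trend. Lep, the leptin gene, measured 5.95, 6.19 and 2.61 after 12 h, against 7.07, 6.90 and 6.95 with DMSO. On 1 of the 3 arrays at 12 h, and in their mean, it lay under the threshold, and it was at least 2.00-fold lower (adjusted p = 0.0227), a call that ended without the intensity trend (0.083), in a fit to those 2 groups alone (0.0629), and without DMSO replicate 1 (0.0662) or 3 (0.0521). Lipe, hormone-sensitive lipase, was 1.84-fold lower (adjusted p = 7.09e-07), the transcription factor gene Cebpa had a log2 change of -0.59 (adjusted p = 1.4e-05), and Cidec is counted on this list as well. Adipoq and Pparg had log2 changes of 0.25 and -0.08 (adjusted p = 0.0736 and 0.411), and were named as defining markers whatever their test. Of 6 tested fibroblast and preadipocyte markers 3, Ebf2, Pdgfra and Col1a1, were lower (log2 changes -0.57, -0.28 and -0.35) and 0 higher (50%, against 14.6% of all genes lower). The call of Col1a1 ended with the mean of its probe sets (adjusted p = 0.322). The log2 of the summed signal of the 6 genes ranged between 15.52 and 15.61 at 12 h and between 15.39 and 15.64 with DMSO. Of 4 tested macrophage markers 1, Cd14, was higher (log2 change 0.38), which is 25%, against 13.7% of all genes higher. The log2 sums of the 4 lay between 9.86 and 10.20 at 12 h and between 9.58 and 9.90 with DMSO. Of 9 listed brown and beige markers 5 were tested, and 1 of them, Cox8b, was lower (20%, against 14.6% of all genes lower). Its log2 change was -0.27 (adjusted p = 0.0487), a call that ended without any of 7 of the 12 arrays and without the intensity trend (adjusted p = 0.138). The part of a change in cell state or mixture in the lower oxidation genes was not tested.

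**Figure D4:**
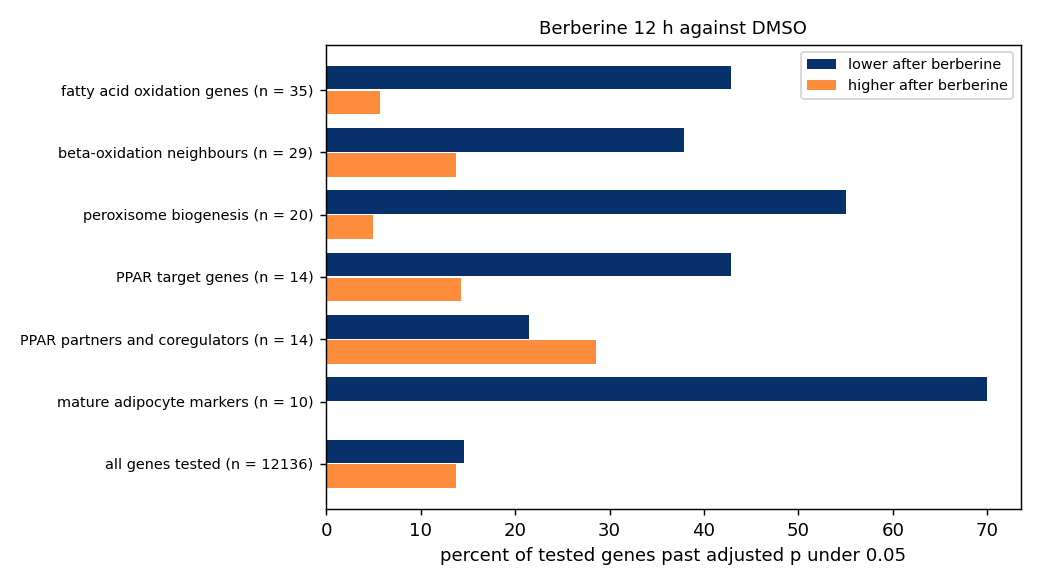
Percent of the tested genes of each list (horizontal axis, number tested in brackets) that were lower or higher after 12 h of berberine than with DMSO at an adjusted p under 0.05. Of the fatty acid oxidation genes 42.9% were lower and 5.71% higher, beside 14.6% and 13.7% of all genes tested.

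The 16 members called in none of the comparisons were Cpt1a, Acadl, Echs1, Eci1, Eci2, Decr1, Decr2, Etfa, Acot1, Acox3, Acaa1a, Abcd3, Phyh, Amacr, Ppara and Ppard. Their log2 changes from DMSO over the 3 times ranged between -0.26 and 0.50, and missing the threshold does not show that they were the same. Decr1 and Eci1 among them were called under alternatives given above. Over all 35 genes, 24 had their lowest group mean at 12 h, a description only, as the share over all genes tested is not given here.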

How the data were processed

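Expression was measured on 12 single-colour Affymetrix 3′ arrays, 3 in each of the labels' 4 groups. For 45101 probe sets, 64 of them controls, the authors deposited log2 signals. They were made with MAS5, per the submitters' processing notes, with no version in the sources used here. Back on the linear scale, every array had a 2% trimmed mean of 500.0, so the arrays were used as scaled, with any brightness-dependent bias uncorrected. The number of arrays limits the precision.

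Probe sets reaching the median of all non-control values, 5.77, on 3 or more of 12 arrays were kept (25053). Gene names came from the platform annotation, matched to RefSeq by Entrez identifier. The brightest kept probe set stood for a gene, with those ending in _x_at taken only for want of another. The test was limma's (version 3.58.1, R 4.3.3), fitted to group means of the 12 arrays with 8 residual degrees of freedom and a trend of variance with intensity. Its two-sided p-values were adjusted by Benjamini-Hochberg over 12136 genes and called under 0.05. Folds compare geometric means, and errors are limma's standard errors. A fold against a group averaging below that median was computed as a bound, with values raised to it. Promoter windows, RefSeq's (GRCm38), were searched in Python 3.11.15.

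The fit was tested in 10 simulations of 12 h against DMSO with 200 of 12136 genes changed. It found 44.8% of log2 changes of 0.5 in either direction, 72% of those of 1 and 89.2% of those of 2, with 4.26% false among its calls. Smaller changes were not simulated. The data had 3426 genes called at 12 h against DMSO, so these shares do not carry over to that contrast. Deviations of same-numbered arrays from their group means correlated at -0.04 to 0.03, with 0 of 18 pairs over 0.1, so replicate numbers were not taken to pair the arrays. The alternatives were quantile and cyclic loess normalization, no intensity trend, the mean of a gene's probe sets, every probe set on its own, no filter or a stricter one, dim values raised to the threshold, only the groups compared, the replicate block and leaving out each array.

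The members and gene lists were chosen with earlier results of these data known. Named were members called in any comparison, both receptors, all probe sets that differed in call or sign, and up to 4 called genes per further list with the largest change. Slc25a20, Pex13, Acat1, Lpl, Plin2, Adipoq and Pparg were named outside this rule, after their values were seen. The lists covered beta-oxidation neighbours, peroxisome biogenesis, ketone bodies, PPAR targets, PPAR partners and coregulators, and markers of adipocytes, fibroblasts, macrophages, endothelium and brown fat.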

Additional observations from a re-analysis of the deposited data

Results flagged for a closer look

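The change from DMSO differed between berberine times by direct tests of the difference. It differed between 6 h and 3 h in 2 of the fatty acid oxidation genes, Acot2 and Cpt2, between 12 h and 6 h in 9, and between 12 h and 3 h in 17. A probe set of Decr1 that did not stand for the gene in the report fell at 12 h, with a log2 change of -0.55 (adjusted p = 0.000117), while the one used had a log2 change of 0.08.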

How the results depend on the processing

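The 17 calls at 12 h against DMSO were between 13 and 18 when 1 array was left out, and within 1.5 times 17 under all the other alternatives, and the 0 calls at 3 h stayed 0 throughout. At 6 h against DMSO the count was 7 after quantile normalization and 7 after cyclic loess, in place of 4, and between 4 and 5 without 1 array. Without the intensity trend the counts were 0 in place of 2 for 6 h against 3 h, 3 in place of 9 for 12 h against 6 h, 11 in place of 17 for 12 h against 3 h and 10 in place of 16 for the F test. With the mean of a gene's probe sets they were 1 for 6 h against 3 h and 5 for 12 h against 6 h. Leaving out 1 array gave 0 to 3 for 6 h against 3 h, 6 to 9 for 12 h against 6 h, 11 to 18 for 12 h against 3 h and 11 to 17 for the F test. With the replicate block the counts were 0, 4 and 17 for 3, 6 and 12 h against DMSO, 2, 7 and 16 for 6 h against 3 h, 12 h against 6 h and 12 h against 3 h, and 14 for the F test, although the numbers did not pair the arrays. Over 126 results of single genes, 113 values under alternatives lost the call, 20 gained it and 916 kept direction and call, and the cause was not tested. Of 1591 values called in neither setting, 59 changed sign. Dim signals limit Ppara, Acot1, Acox3, Ehhadh and several second probe sets.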
